A study of Mus musculus with 12 samples.

Results

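Expression of 10 genes of the tumor necrosis factor (TNF) superfamily was examined in primary cultures of the enteric nervous system (ENS). The genes encode 5 ligands (Tnf, Tnfsf10, Tnfsf15, Tnfsf9 and Ltb) and 5 receptors (Fas, Tnfrsf1b, Tnfrsf1a, Ltbr and Tnfrsf11b). They were chosen by gene symbol, with earlier results of these data known. Each has 1 transcript cluster (the probe set of a transcript), and all 10 were found among the 22206 clusters measured. Of the receptors, Fas and Tnfrsf1a carry the cytoplasmic death domain, so the genes are called ligands and receptors here rather than death receptors. Cultures were made from the gut of mouse embryos (e14.5 per the labels) of the Sox10flox line, whose modification the study describes as without relevance to it, and all groups share this line. The LPS + 6-MP cultures received 50 µM 6-mercaptopurine (6-MP), a thiopurine used against inflammatory bowel disease, 16 h before 10 ng/ml lipopolysaccharide (LPS), a bacterial cell wall component, was given for 6 h. The LPS cultures received the same LPS without 6-MP, the 6-MP cultures 6-MP without LPS, and the control cultures were left untreated. Each group comprised 3 Clariom S microarrays from independent experiments, 12 in all. The cultures were mixtures in which enteric neurons and glia are a minority, so each value is a mean over several cell types of the gut wall, and fewer cells of a type cannot be told apart from less RNA per cell.

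Ligands of the TNF superfamily are trimers on the cell surface or shed from it, and they cluster their receptors on the responding cell. Receptors with a death domain can recruit caspase-8 and start apoptosis. Many receptors of the family, with or without this domain, signal through TRAF adaptors to the transcription factor NF-κB. NF-κB in turn drives inhibitors of its own pathway. In the inflamed gut, TNF is a main target of antibody treatment, TL1A (Tnfsf15) is a ligand of lymphocyte costimulation, and FAS and TRAIL (Tnfsf10) are the classical inducers of extrinsic cell death.

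Promoter sequence was looked at because NF-κB and the interferon pathway both act downstream of LPS. RefSeq windows of the 250 bases before the transcription start (build GRCm38.p6) were given for 8 of the 10 genes, all but Tnfsf9 and Tnfrsf11b. The windows of 3 genes are printed 5′ to 3′ on the strand of the gene: Tnf and Tnfrsf1b as the ligand and the receptor with the largest LPS changes, and Ltb as the holder of an NF-κB motif. Capitals mark a match to the NF-κB motif (Ltb) or to the interferon-stimulated response element (Tnfrsf1b), and Tnf has neither. The windows lie at chr17:35202008-35202257 (minus strand, Tnf), chr4:145246871-145247120 (minus strand, Tnfrsf1b) and chr17:35194257-35194506 (plus strand, Ltb).
Tnf: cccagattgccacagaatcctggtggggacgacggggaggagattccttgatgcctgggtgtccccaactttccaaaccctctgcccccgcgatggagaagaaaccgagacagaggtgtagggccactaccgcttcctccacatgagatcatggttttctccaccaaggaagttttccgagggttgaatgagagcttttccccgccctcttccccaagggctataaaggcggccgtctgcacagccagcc
Tnfrsf1b: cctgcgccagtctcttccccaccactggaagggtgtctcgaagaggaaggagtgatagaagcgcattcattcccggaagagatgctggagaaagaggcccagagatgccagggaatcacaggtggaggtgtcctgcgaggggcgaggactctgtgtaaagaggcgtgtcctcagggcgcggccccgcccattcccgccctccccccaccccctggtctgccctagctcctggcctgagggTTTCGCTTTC
Ltb: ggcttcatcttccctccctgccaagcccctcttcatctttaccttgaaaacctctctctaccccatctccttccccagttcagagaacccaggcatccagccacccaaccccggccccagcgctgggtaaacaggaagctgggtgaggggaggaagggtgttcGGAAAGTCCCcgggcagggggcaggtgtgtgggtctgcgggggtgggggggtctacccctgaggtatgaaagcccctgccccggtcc

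A looser form of the 10-base NF-κB motif, searched on both strands, was found in 1 of the 8 windows, against 7.25% of 32851 RefSeq windows of the same length. The match was GGAAAGTCCC at -87 to -78 of Ltb, on the opposite strand, and the stricter form, which overlaps it by construction (3.9% of all windows), found the same site. The interferon-stimulated response element (2.98% of all windows) was found once, in Tnfrsf1b, as TTTCGCTTTC at -10 to -1 on the opposite strand. The p53 half-site (7.13% of all windows) was not found in any of the 8. These letters describe only the windows searched. The gene with the NF-κB match, Ltb, was not above background in any group, and the 5 genes that LPS raised have no NF-κB match in their windows. All but 7.25% of the RefSeq windows also lack a match, so its absence here says little. Whether NF-κB acts on these genes was not tested.

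The array values are log2 signals deposited by the authors, with array medians from 7.41 to 7.53. Background was set at 5.78, the 90th percentile of 1452 clusters for receptors of smell and taste (olfactory, vomeronasal and taste receptors), genes largely silent in the gut wall. In control cultures the smooth muscle gene Acta2 had a mean of 18.05, the fibroblast gene Dcn 16.81, the epithelial gene Cdh1 15.80 and the neuronal gene Stmn2 13.96, whereas of 5 measured glial markers Sox10 and S100b were under background in every group. The other glial markers were above it, with control means of 10.65 for Fabp7, 9.82 for Erbb3 and 6.45 for Gfap. Fabp7 was called lower in LPS + 6-MP than in 6-MP cultures, with means of 8.33 and 10.02. Its mean was also lower in LPS (9.32) than in control cultures (10.65), a comparison in which no glial marker was called. The part of Fabp7 in the results was not tested. Of 8 lymphocyte markers 7 were measured, and all 7 were under background in every group. In each group 1 array stood apart on principal component 2 (25% of the variance): LPS + 6-MP replicate 1, LPS replicate 2, 6-MP replicate 1 and control replicate 2, with scores of 33.2 to 48.2 against -32.5 to -8.16 for the other 8 arrays. The LPS changes of called genes are also given without these 4 arrays. For other genes they are given only in part.

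LPS stimulation raised 5 of the 10 genes: Tnf, Tnfsf10 and Tnfsf15 among the ligands, Fas and Tnfrsf1b among the receptors. No gene of the 10 was lowered. A gene was called at a fold of at least 2 and an adjusted p under 0.05 from limma, fitted to all 22206 clusters. By this rule 1.51% of all clusters were called higher in LPS than in control cultures and 0.0946% lower. The median log2 change was 1.63 over the 10 genes and -0.04 over all clusters. Because the genes were chosen with earlier results known, these shares and medians describe them and are no test of the set. With 6-MP present, 4 of the 10 genes were called higher in LPS + 6-MP than in 6-MP cultures, against 1.31% of all clusters, and none lower, against 0.131%. The medians were then 1.25 over the 10 genes and -0.03 over all clusters.

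**Figure D1:**
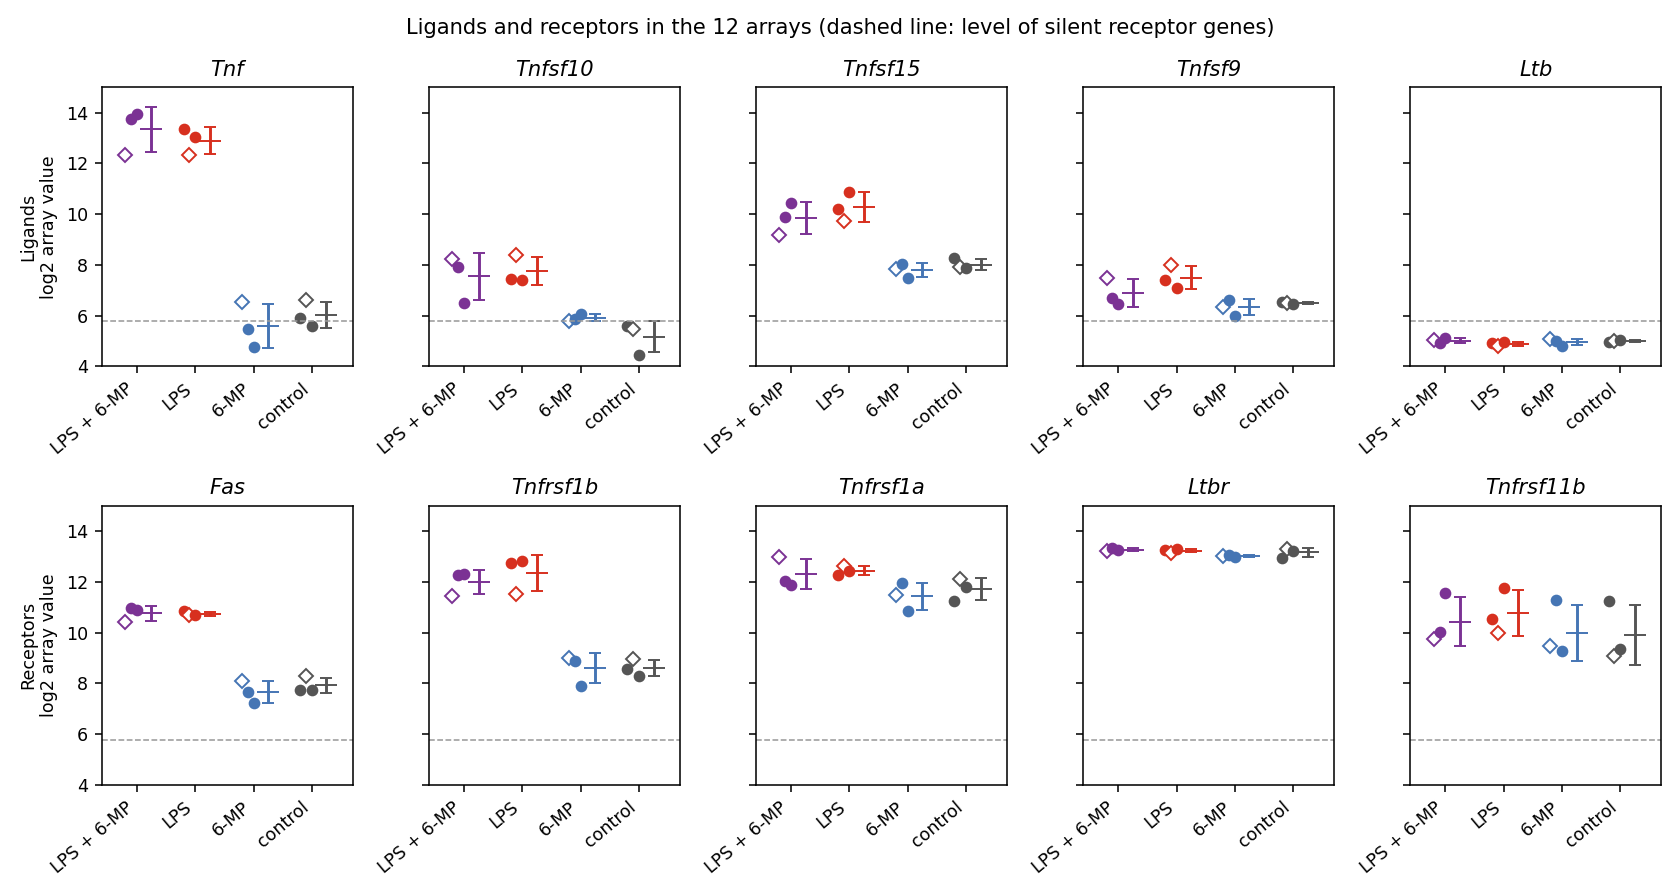
Log2 array value of each of the 10 genes (y axis) in the 12 arrays, by group (x axis). Points are arrays, open diamonds the 4 arrays that stand apart, horizontal lines the mean with its SD (n = 3), and the dashed line the background level of 5.78. Tnf, Tnfsf10, Tnfsf15, Fas and Tnfrsf1b lie higher in every array with LPS than in any without it, and Ltb lies under background throughout.

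Among the ligands, Tnf changed most. Its values were 13.34, 12.32 and 13.03 in LPS cultures, against 5.91, 6.60 and 5.59 in control cultures. The groups were far apart, with control values close to background and LPS values far above it. The rise of Tnf was 116.5-fold, or 6.86 on the log2 scale (SE 0.50, limma adjusted p = 1.01e-05). In LPS + 6-MP cultures Tnf had 12.33, 13.76 and 13.94, against 6.53, 5.46 and 4.78 in 6-MP cultures. With the 6-MP values raised to background, this was a rise of at least 159.7-fold (log2 change 7.76 without the bound, SE 0.50, adjusted p = 5.92e-06).

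Tnfsf15 encodes TL1A, the ligand of death receptor 3. It had 10.21, 9.71 and 10.89 in LPS cultures, against 8.25, 7.90 and 7.86 in control cultures, and 9.19, 9.88 and 10.44 in LPS + 6-MP cultures, against 7.82, 8.04 and 7.49 in 6-MP cultures. Every array with LPS was above every array without it. The rise was 4.82-fold without 6-MP (log2 change 2.27, SE 0.33, limma adjusted p = 0.0027) and 4.14-fold with it (2.05, SE 0.33, adjusted p = 0.00652).

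Tnfsf10 encodes TRAIL, which binds death receptor 5 on the target cell. In LPS cultures it had 7.42, 8.39 and 7.42, against 5.59, 5.45 and 4.46 in control cultures. All control values lay under background and all LPS values above it. Tnfsf10 rose at least 3.92-fold (log2 change 2.58 without the bound, SE 0.44, limma adjusted p = 0.00689). On the log2 scale Tnfsf10 has a bound of 1.97, which falls to 1.55 with background set at the 95th percentile. In LPS + 6-MP cultures it had 8.25, 7.90 and 6.48, against 5.80, 5.88 and 6.06 in 6-MP cultures. The groups again did not overlap, but replicate 3 of LPS + 6-MP lay close to the 6-MP arrays, and the 3.09-fold difference (log2 change 1.63, SE 0.44) did not pass the adjusted threshold (adjusted p = 0.113). Without LPS + 6-MP replicate 3 it did, with a log2 change of 2.16 and an adjusted p of 0.0159, and without the 4 arrays that stand apart it did not (log2 change 1.22, adjusted p = 0.303). The difference between the LPS changes with and without 6-MP was -0.95 (SE 0.62, adjusted p = 1), and -0.34 with values raised to background.

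Tnfsf9, the 4-1BB ligand that costimulates T cells, had 7.39, 7.98 and 7.09 in LPS cultures, against 6.53, 6.49 and 6.46 in control cultures. The groups did not overlap, yet the 1.99-fold difference (log2 change 0.99, SE 0.29, limma adjusted p = 0.165) was not called. With 6-MP the arrays overlapped, at 7.499, 6.68 and 6.47 in LPS + 6-MP cultures, against 6.35, 6.62 and 6.00 in 6-MP cultures (log2 change 0.56, SE 0.29, adjusted p = 0.515).

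Ltb encodes lymphotoxin β, which binds the receptor Ltbr as a complex with lymphotoxin α and is chiefly a lymphocyte product. It lay between 4.80 and 5.12 in all 12 arrays, under background in every group, so no fold is given. Its 3 LPS values were the lower ones (4.93, 4.80 and 4.94, against 4.96, 5.0 and 5.02 in control cultures), by 0.10 on average (log2 change -0.10, SE 0.15, limma adjusted p = 0.932).

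**Figure D2:**
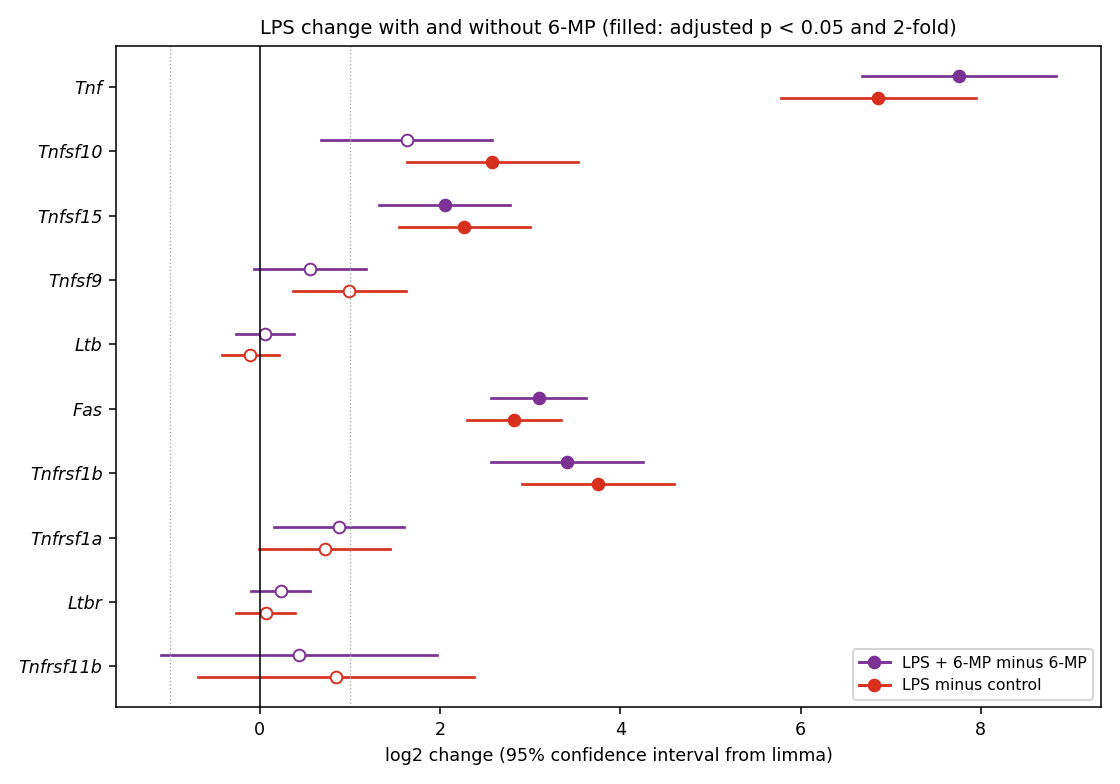
Log2 change with LPS (x axis, with its 95% confidence interval from limma) for each of the 10 genes (y axis), with 6-MP (LPS + 6-MP minus 6-MP) and without it (LPS minus control). Filled points were called and open points were not, dotted lines mark 2-fold. The changes without 6-MP range from -0.10 for Ltb to 6.86 for Tnf, and the intervals with and without 6-MP overlap for every gene.

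Of the receptors, Tnfrsf1b and Fas rose. Tnfrsf1b encodes TNF receptor 2, which lacks a death domain and signals through TRAF2. It had 12.73, 11.52 and 12.81 in LPS cultures, against 8.56, 8.95 and 8.29 in control cultures. In LPS + 6-MP cultures it had 11.45, 12.26 and 12.30, against 8.98, 8.90 and 7.91 in 6-MP cultures. The lowest array with LPS was thus well above the highest without it. The rise was 13.5-fold without 6-MP (log2 change 3.75, SE 0.39, limma adjusted p = 0.000202) and 10.6-fold with it (3.41, SE 0.39, adjusted p = 0.000493). Fas, the receptor of FAS ligand, had 10.85, 10.68 and 10.71 in LPS cultures, against 7.75, 8.28 and 7.75 in control cultures. With 6-MP it had 10.43, 10.96 and 10.90 in LPS + 6-MP cultures, against 8.10, 7.68 and 7.24 in 6-MP cultures. Fas had the narrowest spread of the called genes in LPS cultures (SD 0.09, n = 3). It rose 7.07-fold without 6-MP (log2 change 2.82, SE 0.24, limma adjusted p = 4.07e-05) and 8.53-fold with it (3.09, SE 0.24, adjusted p = 2.25e-05).

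Tnfrsf1a encodes TNF receptor 1, the widely expressed death domain receptor of TNF. It was well above background without LPS and was not called in either comparison. It had 12.27, 12.63 and 12.44 in LPS cultures, against 11.26, 12.11 and 11.82 in control cultures. These groups did not overlap, but the 1.65-fold difference (log2 change 0.72, 95% confidence interval -0.00 to 1.44, adjusted p = 0.559 from limma) did not pass the adjusted threshold. In LPS + 6-MP cultures it had 12.97, 12.06 and 11.89, against 11.47, 11.94 and 10.87 in 6-MP cultures, and the groups overlapped (log2 change 0.88, SE 0.33, adjusted p = 0.327).

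Ltbr, the lymphotoxin β receptor, had the narrowest range of the genes above background. All its 12 values lay between 12.95 and 13.34. The LPS change was 0.07 without 6-MP (95% confidence interval -0.26 to 0.40, adjusted p = 0.962 from limma) and 0.23 with it (-0.09 to 0.56, adjusted p = 0.63), so a change of 2-fold lies outside both intervals. The arrays of LPS + 6-MP (13.23, 13.34 and 13.24) did lie above those of 6-MP (13.03, 13.08 and 13.00) without overlap.

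Tnfrsf11b encodes osteoprotegerin, a secreted decoy receptor for RANK ligand and TRAIL. Its arrays varied more within groups than between them. It had 10.54, 9.99 and 11.76 in LPS cultures, against 11.26, 9.10 and 9.37 in control cultures, and 9.74, 10.02 and 11.56 in LPS + 6-MP cultures, against 9.48, 11.27 and 9.26 in 6-MP cultures. The LPS changes of 0.85 (95% confidence interval -0.68 to 2.38) and 0.43 (-1.10 to 1.96) had adjusted p values of 0.851 and 0.888 from limma.

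Counted by overlap alone, 7 of the 10 genes were higher and 1 was lower in every LPS array than in every control array, against 6.88% and 8.18% of all clusters. The lower gene was Ltb, which was under background in both groups. In LPS + 6-MP against 6-MP cultures 6 genes were higher and none lower, against 7.13% and 7.64%. At an unadjusted p under 0.05 from limma, 6 genes were higher in each comparison, against 4.76% and 5.29% of all clusters. With 3 arrays in each group the smallest exact permutation p is 0.1, so the p values of single genes rest on the spread that limma shares over clusters. By the methods' t-test, which they name for comparisons of 2 groups in general and not for the arrays, 5 genes passed an unadjusted p under 0.05 with the fold in each comparison, and 0 of the 10 after adjustment, with lowest adjusted p values of 0.0978 and 0.27.

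The second question was whether 6-MP altered these genes. It changed none of the 10 at the adjusted threshold, with LPS or without it, and 0% of all clusters were called in any 6-MP comparison of this fit. At a looser rule, an unadjusted p under 0.05 with a 2-fold change, none of the 10 genes passed either, against 0.117% of clusters for LPS + 6-MP minus LPS and 0.063% for 6-MP minus control. At an unadjusted p under 0.05 without a fold, the 10 genes gave 0 as well, against 3.6% and 2.13%.

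In LPS cultures, 6-MP left the LPS-induced genes with broadly overlapping arrays. Tnf averaged 13.35 ± 0.88 in LPS + 6-MP cultures and 12.90 ± 0.52 in LPS cultures (SD, n = 3 each), a difference of 0.45 (95% confidence interval -0.63 to 1.53). Fas averaged 10.77 ± 0.29 in LPS + 6-MP and 10.75 ± 0.09 in LPS cultures, a difference of 0.02 (-0.51 to 0.54). The differences were -0.35 for Tnfrsf1b (-1.19 to 0.49), -0.44 for Tnfsf15 (-1.16 to 0.29) and -0.20 for Tnfsf10 (-1.15 to 0.75). Tnfsf9 came nearest to a change, at 6.89 ± 0.54 in LPS + 6-MP and 7.49 ± 0.45 in LPS cultures (SD, n = 3 each), a difference of -0.60 (-1.22 to 0.02) with an unadjusted p of 0.058 and an adjusted p of 0.9997 from limma. The interval excluded a 2-fold change in both directions for 4 genes (Fas, Tnfrsf1a, Ltbr and Ltb, the last under background). For the other 6 it did not, so that a change of that size was not resolved with 3 arrays. None of the 10 genes had groups without overlap, against 8.29% of all clusters.

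Without LPS, 6-MP gave differences between -0.44 for Tnf and 0.75 for Tnfsf10, and all adjusted p values were 1. Tnf had 6.53, 5.46 and 4.78 in 6-MP cultures, against 5.91, 6.60 and 5.59 in control cultures, values around background, and the difference shrank to -0.07 with values raised to it. Tnfsf10 was the 1 gene without overlap, against 5.91% of all clusters, with 5.80, 5.88 and 6.06 in 6-MP cultures, against 5.59, 5.45 and 4.46 in control cultures. These values straddle background, and the difference shrank to 0.14 on the log2 scale with control values raised to it (unadjusted p = 0.112 before that). The interval excluded a 2-fold change in both directions for 6 genes (Fas, Tnfrsf1b, Tnfsf15, Tnfsf9, Ltbr and Ltb).

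**Figure D3:**
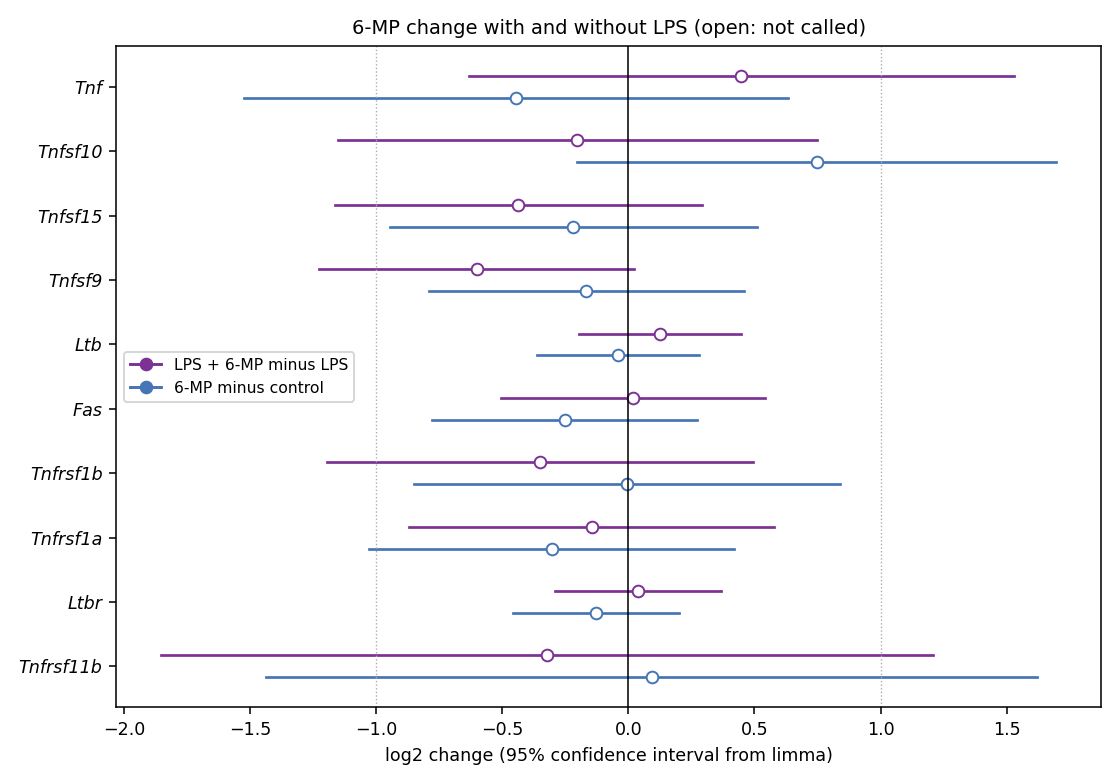
Log2 change with 6-MP (x axis, with its 95% confidence interval from limma) for each of the 10 genes (y axis), with LPS (LPS + 6-MP minus LPS) and without it (6-MP minus control). All points are open because none was called, and dotted lines mark 2-fold. The changes lie between -0.60 and 0.75, and Tnfrsf11b has the widest intervals.

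Averaged over both 6-MP comparisons, the changes lay between -0.38 for Tnfsf9 (SE 0.20) and 0.27 for Tnfsf10 (SE 0.31), with Tnf at 0.00 (SE 0.35). None of the 10 was called, as were 0% of all clusters, and none passed the unadjusted rule with the fold (0.054% of all clusters) or an unadjusted p under 0.05 (3.81%). The interaction, the LPS change with 6-MP minus that without it, was 0.89 for Tnf (95% confidence interval -0.63 to 2.42) and -0.95 for Tnfsf10 (-2.29 to 0.39). Both rest on a group mean under background, and with values raised to background they shrank to 0.52 and -0.34. It was called for none of the 10 genes (0% of all clusters), nor did any pass the unadjusted rule with the fold (0.302%) or an unadjusted p under 0.05 (1.95%), and the adjusted p was 1 for each.

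The ligands and receptors varied in different ways in the 4 arrays that stand apart. Set against the mean of the other 2 arrays of its group, the array apart had a higher mean of 17 interferon-stimulated genes, by 1.62 on the log2 scale (0.94 to 2.56). The mean of the mast cell and neutrophil markers was higher by 1.26 (1.24 to 1.28). Of these markers only the neutrophil genes S100a8 and S100a9 were above background, and the mast cell genes were under it in every group. The mean of the epithelial markers was higher by 0.77 and that of the neuronal markers by 0.72. Smooth muscle markers were lower by 1.28, fibroblast markers by 0.60 and macrophage markers by 0.44. Tnfrsf11b was below the mean of the other 2 in all 4 groups, by 0.78 to 1.22, and Tnfrsf1a above it, by 0.06 to 1.00. In 6-MP cultures the array apart lay between the other 2 for both genes. It had 9.48 for Tnfrsf11b, against 11.27 and 9.26, and 11.47 for Tnfrsf1a, against 11.94 and 10.87. The difference of Tnfrsf11b rests largely on 1 high array in each group (11.56 in LPS + 6-MP, 11.76 in LPS, 11.27 in 6-MP and 11.26 in control cultures). Tnf differed in direction, at 1.52 lower in the LPS + 6-MP array and 0.87 lower in the LPS array, but 1.41 higher in the 6-MP array and 0.86 higher in the control array. Without the 4 arrays the mean of Tnf was under background in 6-MP (5.12) and control cultures (5.75), so its LPS changes are then bounds, of at least 269.8-fold with 6-MP and at least 162.5-fold without it. Those of Tnfrsf1b were 3.88 and 4.34 on the log2 scale, those of Fas 3.47 and 3.03 and those of Tnfsf15 2.392 and 2.495. Tnfsf10 was above the mean of the other 2 in 3 of the 4 arrays. Its change without 6-MP remained called without these 4 arrays (log2 change 2.40, adjusted p = 0.0338 from limma). Its control mean was then under background (5.02), so this is a rise of at least 3.13-fold. The same 5 and 4 genes were called without these arrays. The part of the other cell types in these deviations was not tested.

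**Figure D4:**
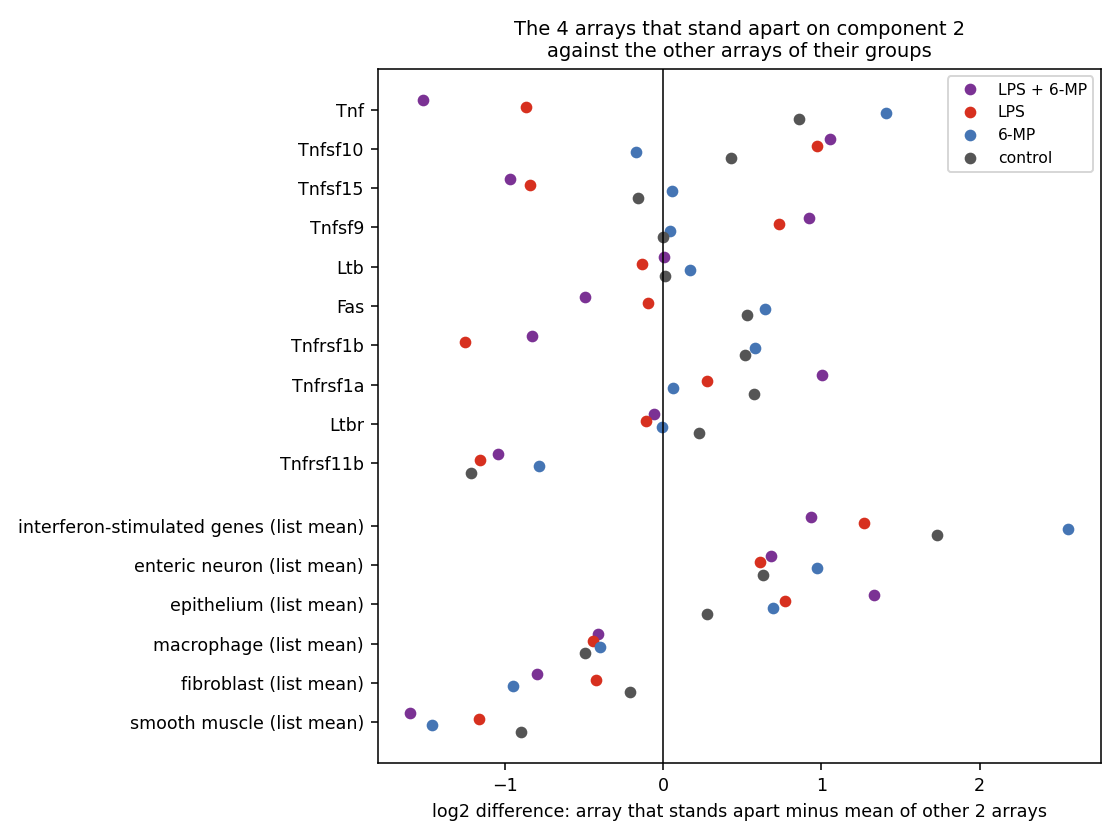
Log2 value of the array that stands apart minus the mean of the other 2 arrays of its group (x axis), for the 10 genes and for the mean of 6 gene lists (y axis), coloured by group. Tnfrsf11b is lower in all 4 groups (-1.22 to -0.78), and Tnf is lower in both groups with LPS and higher in both without it.

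Macrophages are a main source of TNF, and none of their measured markers was called higher with LPS. The mean level of the 12 measured of 13 markers was 9.43 in LPS cultures (9.13 to 9.67), against 10.01 in control cultures (9.67 to 10.60), and 9.27 in LPS + 6-MP cultures (8.998 to 9.56), against 9.73 in 6-MP cultures (9.47 to 10.05). The 1 marker called lower was Cx3cr1, in LPS against control cultures. Of the 12 markers 4 had a higher mean in LPS than in control cultures and the rest a lower one. Among the 4 were Adgre1 (9.76 against 9.03) and Ptprc (9.59 against 8.77). In LPS + 6-MP against 6-MP cultures 2 were higher, Adgre1 (10.05 against 9.18) and Ptprc (9.22 against 8.90). The part of macrophages in the changes of the ligands and receptors was not tested. The mast cell markers Cpa3, Cma1 and Mcpt4 were under background in every group. The neutrophil markers S100a8 and S100a9 were above it in every group, with group means of 6.71 to 8.01 and 7.89 to 8.26. Of 19 interferon-stimulated genes 17 were measured, 13 of them being called higher in LPS than in control cultures (median log2 change 3.28) and 11 in LPS + 6-MP than in 6-MP cultures (3.55). Over all clusters 1.51% and 1.31% were called higher, with medians of -0.04 and -0.03. The part of the interferon-stimulated genes in the changes of the ligands and receptors was not tested.

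Other genes of the superfamily were counted by list. Over all clusters, 1.51% were called higher with LPS without 6-MP and 1.31% with it, at median log2 changes of -0.04 and -0.03. Of 13 further ligands 11 were measured, 5 of them under background in every group, and none was called in any comparison (median LPS change 0.19 without 6-MP and 0.09 with it). Of 23 further receptors 22 were measured, 4 of them under background in every group, and Cd40 was the only one called. Cd40, a costimulatory receptor of antigen-presenting cells, averaged 8.36 in LPS and 6.59 in control cultures, a 3.41-fold rise (adjusted p = 0.00427 from limma), and 8.21 in LPS + 6-MP and 6.53 in 6-MP cultures, 3.21-fold (adjusted p = 0.00732). The medians of these receptors were -0.00 without 6-MP and 0.14 with it. Tnfrsf22 and Tnfrsf23, mouse decoy receptors for TRAIL, passed the unadjusted rule for 6-MP. Tnfrsf22 differed by 1.37 for LPS + 6-MP minus LPS and by 1.16 for 6-MP minus control, and Tnfrsf23 by 1.21 and 1.06, with adjusted p values of 0.9997 and 1.

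Partners of the 10 genes, named here after their values were seen, were not called with LPS. Fasl, the ligand of Fas, was under background in every group. Tnfrsf10b, death receptor 5 for TRAIL, averaged 10.80 in LPS and 9.99 in control cultures (adjusted p = 0.65 from limma). Tnfrsf25, the receptor for TL1A, averaged 7.60 in LPS and 7.44 in control cultures (adjusted p = 0.921), and Tnfrsf9, the receptor for the 4-1BB ligand, 7.92 and 6.99 (adjusted p = 0.712).

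Below the receptors lie the receptor complex and NF-κB signalling. Of 27 such genes 23 were measured. In LPS against control cultures 8 were called higher, against 1.51% of all clusters. In LPS + 6-MP against 6-MP cultures 9 were called higher, against 1.31%, and none was called lower in either comparison. The median log2 changes were 0.47 and 0.56, against -0.04 and -0.03 over all clusters. The called genes with the largest changes include inhibitors of the pathway. Tnfaip3 (A20), a ubiquitin-editing enzyme that restrains NF-κB, rose 20.2-fold without 6-MP and 20.1-fold with it. Nfkbia, the inhibitor IκBα, rose 9.40- and 7.84-fold, and Tnip1, a partner of A20, 5.18- and 4.23-fold. The adaptor gene Traf1 rose at least 4.81- and 5.31-fold, the ubiquitin ligase gene Birc3 (cIAP2) 6.57- and 5.97-fold and the NF-κB subunit gene Nfkb2 6.70- and 6.66-fold. The gene that was called only with 6-MP, Rela, had a 2.003-fold change there (adjusted p = 0.0171 from limma) and a log2 change of 0.97 without 6-MP (adjusted p = 0.0182), just under the fold limit, so the 2 counts differ by that limit.

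Of 12 genes of death signalling below the receptors 9 were measured, and Mlkl, the membrane-permeabilising effector of necroptosis, was the only one called. It rose 5.73-fold without 6-MP (adjusted p = 0.0012 from limma) and 5.06-fold with it (adjusted p = 0.00261), and the medians of the 9 were 0.29 and 0.20. All 12 genes of TNF shedding and mRNA decay were measured. Of these 3 were called higher without 6-MP and 2 with it, against 1.51% and 1.31% of all clusters. Zc3h12a, an RNase that degrades cytokine mRNA, rose 5.86- and 5.05-fold. Zfp36 (tristetraprolin), which binds the Tnf mRNA for decay, rose 2.48-fold (adjusted p = 0.0492) and 2.62-fold. Rhbdf2 (iRhom2), needed for maturation of the sheddase of TNF, rose 3.20-fold without 6-MP (adjusted p = 0.00212 from limma). It was not called with 6-MP, at a 1.99-fold difference (adjusted p = 0.0689). Its means were 8.80 in LPS + 6-MP, 7.81 in 6-MP, 9.07 in LPS and 7.39 in control cultures. The interaction was called for no gene of this list, so the 2 results are not shown to differ. None of 12 p53 target genes was called in any comparison (medians of 0.34 for LPS + 6-MP minus LPS and 0.24 for 6-MP minus control).

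**Figure D5:**
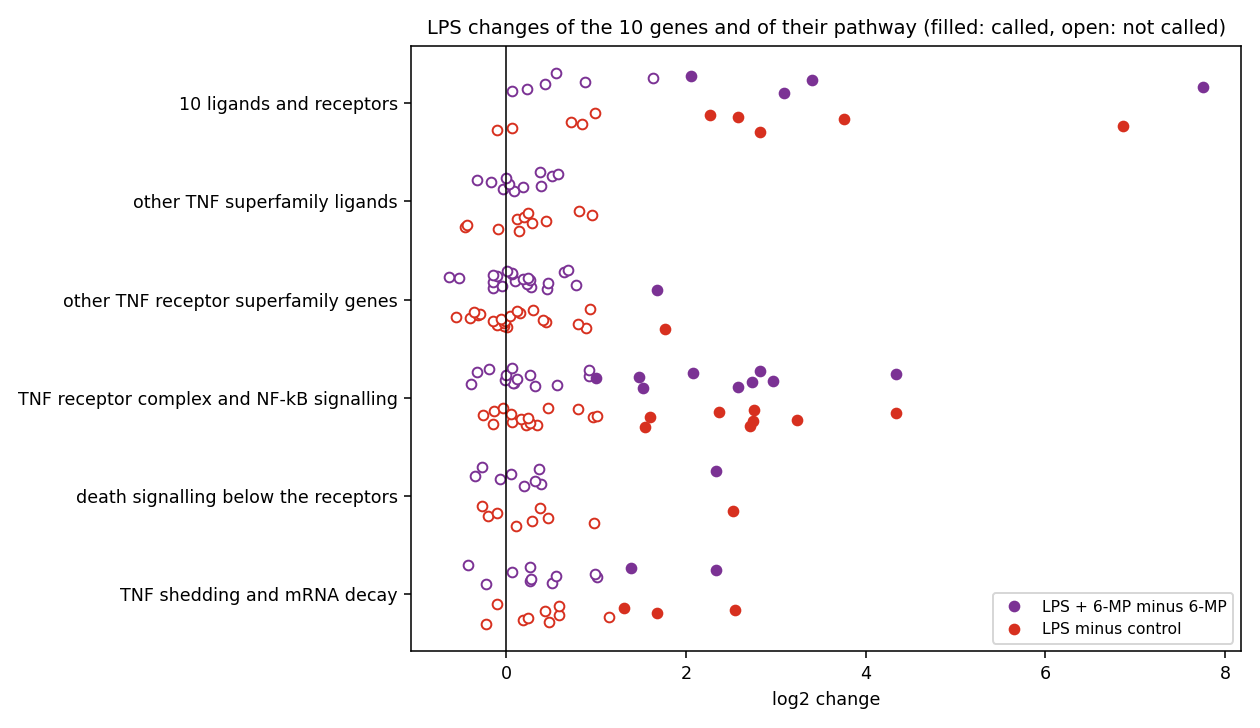
Log2 change with LPS (x axis) of the 10 genes and of the measured genes of 5 pathway lists (y axis), with 6-MP (LPS + 6-MP minus 6-MP) and without it (LPS minus control). Filled points were called and open points were not. In NF-κB signalling 9 and 8 of 23 genes were called higher, against 1.31% and 1.51% of all clusters, and none was called among the other ligands.

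The pattern over the 12 arrays was compared with that of 14012 named genes above background, as a description, since the arrays share the LPS difference. The genes most like Tnf were Fas (Pearson r = 0.997 over 12 arrays), the chemokine gene Cxcl2 (0.995) and Tnfaip2 (0.993). Those most like Fas were Tnf (0.997), Cxcl2 (0.996) and Tnfaip2 (0.995). For Tnfrsf1b they were Tnip1, Cd44 and Slc15a3 (0.994 each) and for Tnfsf15 Slco3a1 (0.983), Cyp1b1 and Cd44 (0.981 each). Tnfsf10 was most like Mlkl (0.956), Ms4a4d (0.941) and Calhm6 (0.94). For the genes that were not called, the closest genes were Apol7c for Tnfsf9 (0.934), Tent5a for Tnfrsf1a (0.92), Cd55 for Tnfrsf11b (0.951), Cramp1l for Ltbr (0.864) and Ppp2r3d for Ltb (0.846). Ltb itself lay under background in every group and was compared with 14013 genes, so its likeness describes values at background. With the group means removed, Fas remained among the 3 genes most like Tnf (r = 0.925), and Mlkl remained the gene most like Tnfsf10 (0.932). The deviations of Tnfrsf11b were most like those of Chn1 (0.989), Ankrd1 (0.986) and Anln (0.982). These values rest on 12 arrays, of which 4 stand apart together.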

How the data were processed

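Total RNA of 12 ENS primary cultures was hybridised to Clariom S arrays. The values deposited by the authors came from the Transcriptome Analysis Console, as 1 log2 value for each cluster and array. Normalization, summarisation and genome build are not given in the sources used here, and no scanner file was used, so background was read from genes silent in the gut. Of 28846 entries, 6640 control entries were left out. The platform table gives 1 symbol for 19572 of 22206 clusters.

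Limma 3.58.1 in R 4.3.3 was fitted to 4 group means over all clusters with no filter on low values (residual degrees of freedom 8, prior 4.25), with Benjamini-Hochberg adjustment over all of them. The fit was tested on simulated data. Where 1 group mean was under background, a fold is given as a bound, with values raised to 5.78, and where both were, none is given. Such a bound holds for this background level, and a higher level gives a lower bound. Levels were not compared between genes, whose probes differ. The number of arrays limits the precision. Replicates were separate experiments according to the study. Same-number pairs correlated above 0.1 in their deviations in 6 of 18 cases. All 3 pairs of LPS + 6-MP with 6-MP did (0.109 to 0.597), but not all 3 of any other 2 groups, and the block is an alternative.

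The genes and lists were chosen with earlier results of these data known. Named are all 10 genes, called genes of each list (up to 6), genes past the 6-MP rule, leading or undetected markers, and the 3 most similar genes. Alternatives were the compared groups only, a replicate block (added later, also within LPS + 6-MP and 6-MP alone), an intensity trend, median centring, quantile normalization, no dim clusters, 1 symbol only, no fold limit, unadjusted p, the methods' t-test, a residual covariate, leaving out the 4 arrays that stand apart and leaving out each array.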

Additional observations from a re-analysis of the deposited data

How the results depend on the processing

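The 5 genes called in LPS against control cultures and the 4 called in LPS + 6-MP against 6-MP cultures were called in every limma alternative, and with the replicate block the counts were again 5 and 4. By the methods' t-test with adjustment the counts were 0 and 0. Tnfsf10, not called in LPS + 6-MP against 6-MP cultures, was called with the residual covariate (log2 change 1.63, adjusted p = 0.028) and without LPS + 6-MP replicate 3 (2.16, adjusted p = 0.0159). Over all clusters, 356 were called for LPS minus control, against 554 at the unadjusted p and 0 by the t-test. For LPS + 6-MP minus 6-MP 320 were called, against 546 at the unadjusted p, 496 with the residual covariate, 202 in a fit of the compared groups only, 192 without 6-MP replicate 3 and 0 by the t-test. With the replicate block they were 336 and 290. A replicate block within LPS + 6-MP and 6-MP alone, added after the data were seen because all 3 of their same-number pairs deviated together, gave 4 of the 10 genes and 380 clusters. Over all groups the closest array of another group had the same number in 8 of 36 cases, and neither block changed a call of the 10 genes. The arrays that stand apart are replicate 1 in LPS + 6-MP and 6-MP cultures, but replicate 2 in LPS and control cultures. A block by number thus does not pair them in the 6-MP comparisons, and a pairing that departs from the numbers was not tested. For the mean 6-MP effect 2 clusters, none of them among the 10 genes, were called with the residual covariate, against 0 without it. The bound on Tnfsf10 in 6-MP against control cultures was 0.14 at the 90th and 0 at the 95th percentile of background.

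Of 1044 values over genes and alternatives, 993 kept their direction and their side of the threshold, and 40 changed sign, none of them called in either setting. Leaving out single arrays gave -0.0388 to 0.14 for Ltbr in LPS minus control. In LPS + 6-MP minus 6-MP it gave -0.0102 to 0.12 for Ltb and -0.13 to 1.07 for Tnfrsf11b. In 6-MP minus control it gave -0.20 to 0.34 for Tnfrsf1b, -0.10 to 0.0319 for Ltb and -0.54 to 0.77 for Tnfrsf11b. In LPS + 6-MP minus LPS it gave -0.48 to 0.0652 for Tnfrsf1a, -0.55 to 0.33 for Tnfsf10, -0.0801 to 0.18 for Fas and -0.88 to 0.18 for Tnfrsf11b. For the mean 6-MP effect it gave -0.23 to 0.26 for Tnf and -0.43 to 0.22 for Tnfrsf11b. For the interaction it gave -0.18 to 0.42 for Tnfrsf1a, -0.52 to 0.11 for Tnfsf15 and -1.09 to 0.22 for Tnfrsf11b. Median centring gave 0.0151 for Tnfrsf1b in 6-MP minus control. Quantile normalization gave -0.0076 for Ltb in the mean 6-MP effect. Without the 4 arrays that stand apart, Tnfrsf11b in 6-MP minus control was -0.0531, Ltb in the mean 6-MP effect -0.0077 and Tnfrsf1a in the interaction -0.26. The cause of these changes was not tested.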
